A study of Mus musculus with 6 samples.

Results

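The genes described here are 37 antiviral effector genes of the interferon response, read in mouse bone marrow-derived macrophages. They were chosen by symbol from the deposited gene count table as IFIT, OAS, MX, PARP, p200 and related effectors. Earlier results of these data were known when they were chosen. All 37 were found among the 55335 genes listed. Of these, 36 had enough counts to be tested, among 13901 tested genes in all. The macrophages are primary cells grown from mouse bone marrow with 20 ng/mL macrophage colony-stimulating factor (M-CSF). Both groups received PAC-CM on day 5, a conditioned medium from injured acinar cells, which make the digestive enzymes of the pancreas. In the PAC-CM-KD group (3 libraries) kinsenoside, a plant glycoside abbreviated KD, was added at 400 µM, and in the PAC-CM group (3 libraries) it was not. The labels give no strain, sex or age of mouse, no vehicle, no hour of harvest, and no statement that replicates came from separate animals or cultures, so each p-value reflects variation among these libraries, which may be technical. Macrophages without conditioned medium are not among the samples, so the comparison addresses what kinsenoside changed in exposed cells and not the response to the medium.

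When a cell senses viral or misplaced nucleic acid it secretes type I interferon, which binds its receptor on the same and neighbouring cells. The receptor's kinases activate a transcription factor complex that holds STAT2 and IRF9, and this complex binds a DNA element of repeated GAAA units, the interferon-stimulated response element (ISRE), in front of the effector genes. Some of them can also be switched on directly by IRF3 or IRF1. Their products block viral entry, translation, replication or release, and macrophages are strong producers of and responders to interferon.

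Total counts were between 41125059 and 43434292 in PAC-CM-KD libraries and between 43054066 and 47461702 in PAC-CM libraries. Levels are given as CPM (library counts scaled to a common total), scaled by TMM factors of 0.979 to 0.990 in PAC-CM-KD and 1.013 to 1.019 in PAC-CM. A count of 3 corresponds to between 0.0632 and 0.0729 CPM. The macrophage markers listed summed to 22982 to 26062 CPM in PAC-CM-KD and 20376 to 22498 CPM in PAC-CM, led by Lyz2, and all of them were detected. Among markers of other cells, those of plasmacytoid dendritic cells, which are major interferon producers, summed to 18.3 to 19.8 CPM in PAC-CM-KD and 22.5 to 24.1 CPM in PAC-CM. Most of that sum was Lair1, at a mean of 17.5 CPM in PAC-CM-KD and 21.8 CPM in PAC-CM, and 2 of the 7 markers passed the count filter. The sum therefore describes Lair1 more than the presence of these cells. The other lists had overlapping sums. Conventional dendritic cell markers summed to 6.51 to 9.33 CPM in PAC-CM-KD and 6.74 to 9.32 CPM in PAC-CM. Neutrophil markers summed to 33.8 to 43.6 CPM in PAC-CM-KD and 30.7 to 39.5 CPM in PAC-CM, with Elane at 0, and acinar cell markers to 5.49 to 8.13 CPM in PAC-CM-KD and 6.90 to 7.89 CPM in PAC-CM. The lists for T and NK cells and for fibroblasts reached at most 1.54 CPM in PAC-CM-KD and 1.69 CPM in PAC-CM, with Cd3d and Ncr1 at 0. No marker passed the test, and the part of the macrophage and plasmacytoid dendritic cell sums in the results below was not tested.

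Sequences around the starts of these genes were searched for ISRE-type elements, and whether such elements act on them was not tested. RefSeq promoter windows of the GRCm38.p6 assembly, 250 bases before to 50 after a listed transcription start, matched 28 of the 37 genes by symbol, while Oas2, Mx1, Mx2, Usp18, Ifi204, Parp9, Parp14, Ifi27l2a and Rtp4 were not matched. Each window was searched on both strands for GAAANNGAAA. Of the 28 genes 15 (53.6%) had at least 1 match in a listed window, against 1079 of 27025 genes with a listed window (3.99%). In Oas1a, Oas1g, Isg15 and Bst2 neighbouring matches overlap by one GAAA unit. A match is a description of these letters and not a measured binding site. The genes Rsad2 and Cmpk2, the members called lower below, lie head to head on chromosome 12. The 250 bases before each start are shown in full, with matches in capitals and 5′ to 3′ along the gene's own strand.
Rsad2 (chr12:26456453-26456702, minus strand): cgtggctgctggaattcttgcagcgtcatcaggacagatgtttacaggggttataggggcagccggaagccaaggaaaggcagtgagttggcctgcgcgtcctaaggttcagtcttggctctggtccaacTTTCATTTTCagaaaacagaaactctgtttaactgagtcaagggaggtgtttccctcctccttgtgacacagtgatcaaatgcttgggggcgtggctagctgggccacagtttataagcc
Cmpk2 (chr12:26468965-26469214, plus strand): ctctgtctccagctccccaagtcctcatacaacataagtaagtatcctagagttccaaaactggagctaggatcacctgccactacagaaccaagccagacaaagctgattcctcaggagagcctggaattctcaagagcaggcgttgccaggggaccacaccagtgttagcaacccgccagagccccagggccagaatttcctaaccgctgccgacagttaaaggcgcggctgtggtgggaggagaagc
In Rsad2 a single match lies on the strand opposite to the gene and begins 120 bases before the start, where it reads TTTCATTTTC along the gene's strand. The Cmpk2 window held none, and in GENCODE M21 the annotated gene begins 11 bases upstream of the RefSeq start, so the last bases shown are transcribed in that annotation.

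Excerpts of 60 bases from 6 other members, taken only from those with a match, show forms of the element. Matches are again in capitals.
Ifit1 (chr19:34640777-34640836, plus strand): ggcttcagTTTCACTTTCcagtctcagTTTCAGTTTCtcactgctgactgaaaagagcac
Ifit3 (chr19:34583365-34583424, plus strand): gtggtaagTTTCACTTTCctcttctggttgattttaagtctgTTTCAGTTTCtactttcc
Ifit3b (chr19:34607761-34607820, plus strand): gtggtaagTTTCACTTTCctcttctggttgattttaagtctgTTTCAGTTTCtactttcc
Oas1a (chr5:120907526-120907585, minus strand): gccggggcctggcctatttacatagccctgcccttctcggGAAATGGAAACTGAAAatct
Oas1g (chr5:120887614-120887673, minus strand): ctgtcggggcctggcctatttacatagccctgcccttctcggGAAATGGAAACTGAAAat
Isg15 (chr4:156200845-156200904, minus strand): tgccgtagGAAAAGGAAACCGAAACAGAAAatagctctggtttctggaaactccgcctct
Ifit1, Ifit3 and Ifit3b each had a pair of separate matches on the opposite strand, TTTCACTTTC and TTTCAGTTTC, and the Ifit3 and Ifit3b excerpts were identical over all 60 bases. Oas1a and Oas1g held the same overlapping pair close to the start, beginning 20 and 18 bases before it. Isg15 had 3 overlapping matches, the first beginning 78 bases before its start. The plot of motif positions shows which members had a match and which had none. Those without a match include Ifit2 of the IFIT cluster, Oasl1, Oasl2, Parp12 and Dtx3l.

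**Figure D1:**
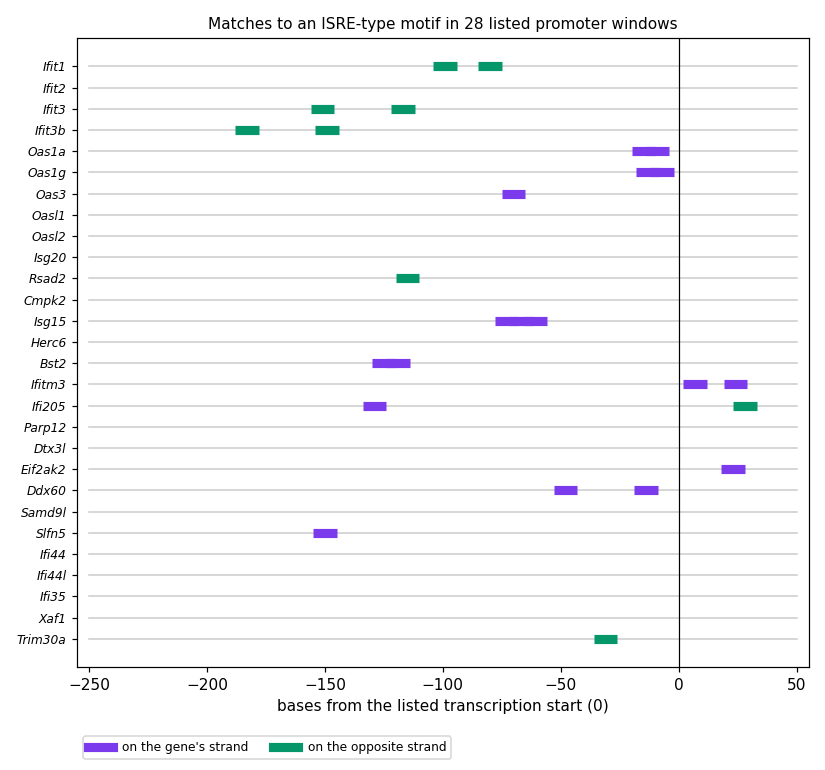
Positions of GAAANNGAAA matches in the RefSeq promoter windows of 28 members; the x axis is the distance in bases from the listed transcription start (vertical line at 0), and colour gives the strand. The 15 genes with a match carried it at different distances, from 188 bases before the start in Ifit3b to after it in Ifitm3, Eif2ak2 and, for 1 of its 2 matches, Ifi205, and Cmpk2 had none.

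With kinsenoside, 2 of the 36 tested effector genes were lower. These were Cmpk2, a mitochondrial nucleotide kinase, and Rsad2, which encodes viperin, an enzyme that converts CTP into a chain terminator of viral RNA synthesis. Cmpk2 fell by 0.49 and Rsad2 by 0.42 on the log2 scale, to 0.713 and 0.750 of the PAC-CM level. No member rose at this threshold, and the other 34 did not pass it. In bulk RNA, fewer cells of a type and less RNA per cell cannot be told apart. The calls were made by edgeR's quasi-likelihood test at a Benjamini-Hochberg adjusted p under 0.05 over all tested genes. Among all tested genes 0.302% were called lower and 0.209% higher, and among the tested members 5.56% were called lower.

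At an unadjusted p under 0.05, 9 members (25.0%) passed, 6 with lower and 3 with higher estimates, against 14.9% of all tested genes. DESeq2 and limma-voom called no member higher either. Over all tested genes DESeq2 called 1.89% lower and 1.63% higher, and limma-voom 0.144% lower and 0.137% higher. All PAC-CM-KD libraries lay below all PAC-CM libraries for 8 members (22.2%), against 11.4% of all tested genes. They lay above for 5 members (13.9%), against 10.4% of all tested genes. Estimates were below 0 for 21 members (58.3%), against 51.1% of all tested genes, and above 0 for 15. The median log2 fold change of the members was -0.04, and that of all tested genes was -0.01. The plot of fold changes shows Cmpk2 and Rsad2 as the only members with a filled point.

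**Figure D2:**
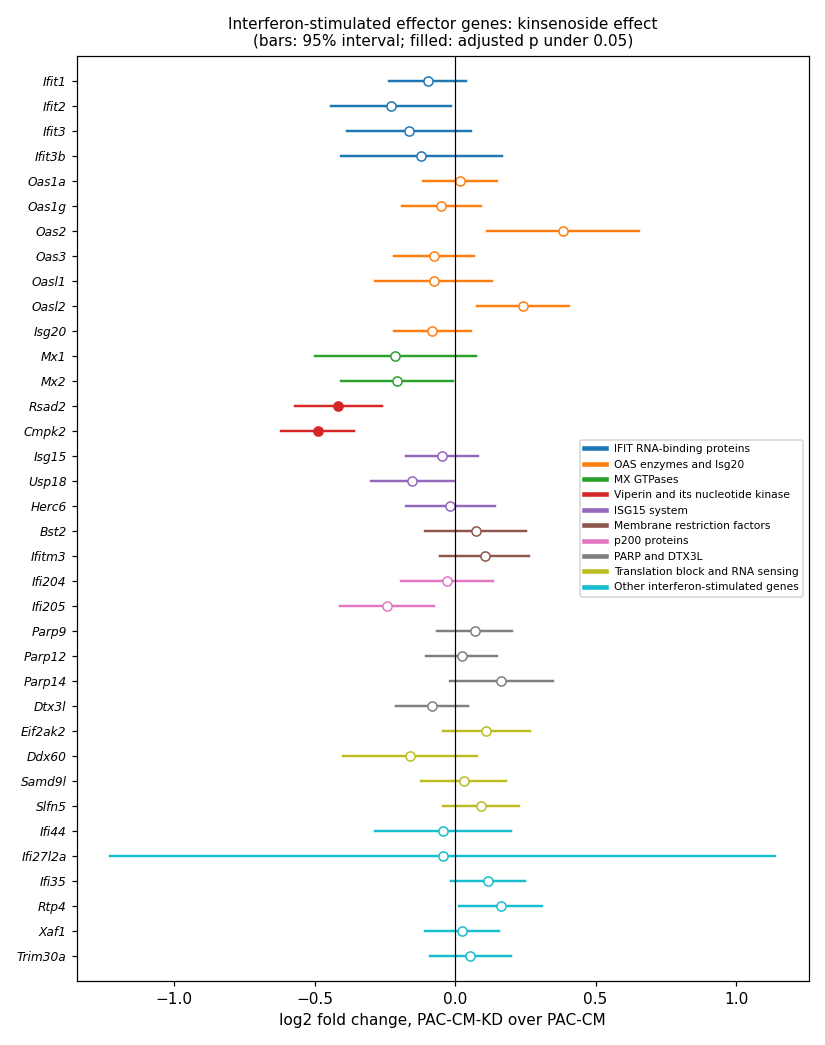
Log2 fold change of each tested member, PAC-CM-KD over PAC-CM, with its 95% interval from edgeR (3 libraries per group); colour gives the role group and a filled point an adjusted p under 0.05. The points of Cmpk2 (-0.49) and Rsad2 (-0.42) are the filled ones, and the interval of Ifi27l2a is the widest.

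Cmpk2 (ENSMUSG00000020638, chr12:26469204-26479837, plus strand, GRCm38) had 1406, 1419 and 1421 CPM in PAC-CM-KD libraries 1 to 3, against 2037, 1914 and 2006 CPM in PAC-CM libraries 1 to 3. The groups were far apart for their spread, with 1415 ± 8.06 CPM in PAC-CM-KD and 1986 ± 64.0 CPM in PAC-CM (SD, n = 3 each). Its log2 fold change was -0.49 (SE 0.0565, 95% interval -0.62 to -0.36, edgeR adjusted p = 0.0152), and its p ranked 16 among the tested genes. The kinase phosphorylates pyrimidine nucleoside monophosphates, and in mouse macrophages it is known for supplying deoxynucleotides for mitochondrial DNA synthesis before inflammasome activation. The call was lost when PAC-CM-KD replicate 2 (adjusted p = 0.0976) or PAC-CM replicate 1, 2 or 3 (0.0946, 0.0573 and 0.0701) was left out, with log2 fold changes of -0.51 to -0.47 in these fits.

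Rsad2 (ENSMUSG00000020641, chr12:26442746-26456452, minus strand) had 2837, 3059 and 3183 CPM in PAC-CM-KD libraries, against 4050.0, 3860.2 and 4199 CPM in PAC-CM libraries. Every PAC-CM-KD library lay below every PAC-CM library, and the means were 3026 ± 175 CPM in PAC-CM-KD and 4036 ± 170 CPM in PAC-CM. Its log2 fold change was -0.42 (SE 0.0678, 95% interval -0.57 to -0.26, edgeR adjusted p = 0.0473), close to the threshold. Leaving out any single library ended the call (adjusted p from 0.0607 to 0.171), as did limma-voom (0.0599) and RLE scaling (0.0534), with log2 fold changes between -0.45 and -0.37. The starts of Rsad2 and Cmpk2 are 12752 bases apart with no coding gene between them. Together these 2 genes took 0.418, 0.443 and 0.450% of all counts in PAC-CM-KD libraries and 0.620, 0.584 and 0.630% in PAC-CM libraries.

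**Figure D3:**
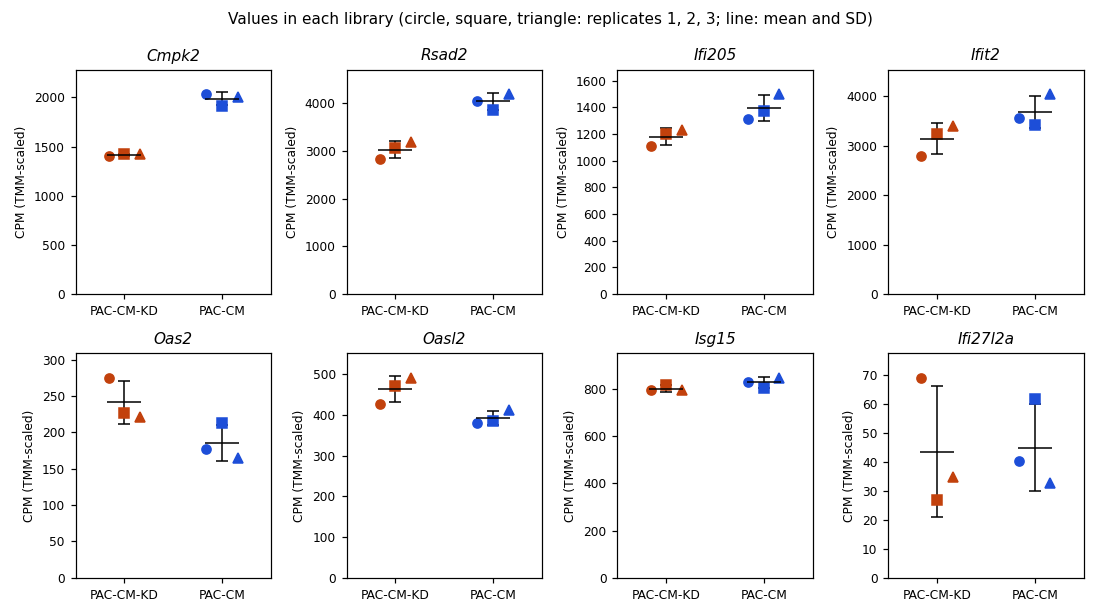
TMM-scaled CPM of 8 members in each library, PAC-CM-KD left and PAC-CM right, with circle, square and triangle for replicates 1 to 3 and a line with bars for the mean and SD (n = 3 each). The groups do not overlap for Cmpk2, Rsad2, Ifi205, Ifit2, Oas2 and Oasl2, of which Oas2 and Oasl2 are higher in PAC-CM-KD, and they overlap for Isg15 and Ifi27l2a.

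The IFIT proteins, IFIT1 above all, bind viral RNA whose cap lacks a particular methyl group or whose end is an uncapped triphosphate, and keep it from being translated. The 4 genes lie in a cluster on chromosome 19. Ifit2, which in mice protects neurons from several viruses, had 2793, 3234 and 3396 CPM in PAC-CM-KD libraries, against 3564, 3422 and 4052 CPM in PAC-CM libraries. Ifit1, the cap-sensing member, had 1484, 1513 and 1557 CPM in PAC-CM-KD libraries, against 1558, 1615 and 1698 CPM in PAC-CM libraries. The groups did not overlap for either gene, although the nearest libraries of the groups, at 1557 and 1558 CPM, were almost level for Ifit1. Their log2 fold changes were -0.23 (SE 0.0939, edgeR adjusted p = 0.310) and -0.10 (SE 0.0602, adjusted p = 0.499). Ifit3 had 1722, 1857 and 1871 CPM in PAC-CM-KD libraries, against 1743, 2107 and 2255 CPM in PAC-CM libraries, with overlap, and Ifit3b was also highest in PAC-CM replicate 3. Their estimates were -0.16 and -0.12, so all 4 estimates of the family were below 0 and none passed the test. Of the 150-base stretches of Ifit3 transcripts 18.5% also occur in Ifit3b, and somewhat fewer the other way round, so reads can be split between these copies, and with both summed the estimate was -0.16 (adjusted p = 0.507).

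The OAS enzymes bind double-stranded RNA and make short 2′-5′-linked chains of adenylate that activate RNase L, which cuts viral and cellular RNA. Oas2 had 276, 227 and 221 CPM in PAC-CM-KD libraries, against 178, 213 and 165 CPM in PAC-CM libraries. Oasl2, an OAS-like protein, had 428, 472 and 493 CPM in PAC-CM-KD libraries, against 380.4, 385 and 412 CPM in PAC-CM libraries. All PAC-CM-KD libraries were above all PAC-CM libraries for both genes, the opposite order to Rsad2 and Cmpk2. The log2 fold changes were 0.38 for Oas2 (SE 0.118, 95% interval 0.11 to 0.65, edgeR adjusted p = 0.197) and 0.24 for Oasl2 (SE 0.0715, adjusted p = 0.180), and the Oasl2 value was the smallest adjusted p among members that did not pass. Oas2 had the highest positive estimate of the 36 members.

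Oas3, whose human counterpart senses long double-stranded RNA best, had 855, 814 and 798 CPM in PAC-CM-KD libraries and 867, 907 and 826 CPM in PAC-CM libraries, which overlap. Isg20, an RNA-degrading exonuclease placed with this group, had 281, 257 and 277 CPM in PAC-CM-KD libraries, against 289, 288 and 284 CPM in PAC-CM libraries, with no overlap. The remaining genes Oas1a, Oas1g and Oasl1, the last a protein that in mice holds back translation of Irf7, had overlapping groups. Of the 7 genes of the group 4 had estimates below 0 and 3 above, from -0.08 to 0.38. Oas1a shares 32.4% of its 150-base stretches with Oas1g, and 24.1% the other way round. Its estimate of 0.02 was -0.0034 with these copies summed.

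MX proteins are dynamin-like GTPases that trap viral nucleocapsids. Mx1 had 474, 582 and 635 CPM in PAC-CM-KD libraries, against 613, 602 and 743 CPM in PAC-CM libraries. Mx2 had 127, 143 and 155 CPM in PAC-CM-KD libraries, against 167, 151 and 172 CPM in PAC-CM libraries. In both genes PAC-CM-KD replicate 1 was the lowest library and PAC-CM replicate 3 the highest, and the groups overlapped through PAC-CM-KD replicate 3. Both log2 fold changes were -0.21, with SE 0.123 for Mx1 (edgeR adjusted p = 0.475) and 0.0876 for Mx2 (0.322). Mx2 is listed as a polymorphic pseudogene in the GENCODE annotation, and many laboratory strains are known to carry a defective Mx1.

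ISG15 is a ubiquitin-like protein that HERC6 attaches to other proteins in mice and that USP18 removes. USP18 also binds the interferon receptor and limits its signalling. Usp18 had 493, 451 and 444 CPM in PAC-CM-KD libraries, against 498, 525 and 520.5 CPM in PAC-CM libraries. The groups did not overlap, with a log2 fold change of -0.15 (SE 0.0643, edgeR adjusted p = 0.321). Isg15 had 794, 816 and 793 CPM in PAC-CM-KD libraries, against 829, 803 and 848 CPM in PAC-CM libraries. These overlap, and its 95% interval of 0.887- to 1.06-fold does not reach the 0.713-fold of Cmpk2. Herc6 had an estimate of -0.02.

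Among membrane proteins, Ifitm3, which stops enveloped viruses from fusing in endosomes, had 1465, 1293 and 1294 CPM in PAC-CM-KD libraries, against 1272, 1277 and 1218 CPM in PAC-CM libraries. Bst2 (tetherin), which holds budding virions on the cell surface, had 1443, 1241 and 1246 CPM in PAC-CM-KD libraries, against 1249, 1311 and 1177 CPM in PAC-CM libraries. In both genes PAC-CM-KD replicate 1 stood above the other libraries. Groups did not overlap for Ifitm3 (log2 fold change 0.11, SE 0.0689, edgeR adjusted p = 0.527) and did for Bst2 (0.07). With CPM by library total the Ifitm3 groups overlapped too.

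The p200 proteins are a mouse family of nuclear and cytosolic DNA-binding proteins. Ifi205 had 1111, 1201 and 1234 CPM in PAC-CM-KD libraries, against 1311, 1377 and 1503 CPM in PAC-CM libraries. The groups did not overlap, and the log2 fold change was -0.24 (SE 0.0733, edgeR adjusted p = 0.188). Ifi204, a DNA sensor that acts through STING, had an estimate of -0.03 with overlapping groups. Of the 150-base stretches of Ifi205 and Ifi204, 12.6% and 6.77% also occur in Ifi211.

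In human cells PARP9 and DTX3L form a complex that modifies histones and viral proteins, PARP14 is an ADP-ribosyltransferase and PARP12 restrains viral translation. Parp14 had 787, 905 and 881 CPM in PAC-CM-KD libraries, against 757, 713 and 825 CPM in PAC-CM libraries, with 1 PAC-CM-KD library below the highest PAC-CM library. Dtx3l had 269.9, 267 and 278 CPM in PAC-CM-KD libraries, against 284, 284 and 294 CPM in PAC-CM libraries, without overlap. Log2 fold changes were 0.16 for Parp14 (SE 0.0797, edgeR adjusted p = 0.376) and -0.08 for Dtx3l (SE 0.0557, adjusted p = 0.548). Dtx3l and Parp9 are another head-to-head pair and share 458 exon bases on opposite strands. Strand use in the counting is not given, so it is not known how reads of that stretch were assigned. Parp9 and Parp12 had estimates of 0.07 and 0.02.

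PKR, the product of Eif2ak2, is a double-stranded RNA-activated kinase that stops translation. Eif2ak2 had 229.7, 239 and 248 CPM in PAC-CM-KD libraries, against 216, 212 and 237 CPM in PAC-CM libraries. Slfn5, a Schlafen family member and the most abundant of this group by counts, had 1299, 1369 and 1333 CPM in PAC-CM-KD libraries, against 1222, 1221 and 1309 CPM in PAC-CM libraries. Each had 1 PAC-CM library inside the PAC-CM-KD range, and the estimates were 0.11 (edgeR adjusted p = 0.496) and 0.09 (0.519). Samd9l, which restricts poxviruses, had an estimate of 0.03. Ddx60, a helicase described in human cells as a partner of RNA sensors, had an estimate of -0.16 with a spread of 13.2% of the mean in PAC-CM-KD and 8.72% in PAC-CM.

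Of the remaining genes, Rtp4, known in mice as a negative regulator of interferon signalling, had 146, 138 and 149 CPM in PAC-CM-KD libraries, against 123, 129 and 135 CPM in PAC-CM libraries. Ifi35 had 154, 151 and 148 CPM in PAC-CM-KD libraries, against 136, 140.0 and 143 CPM in PAC-CM libraries. PAC-CM-KD was above PAC-CM in all libraries of both genes, but with CPM by library total the Rtp4 groups overlapped. Log2 fold changes were 0.16 (SE 0.0650, edgeR adjusted p = 0.303) and 0.12 (SE 0.0579, adjusted p = 0.385). Trim30a, a mouse TRIM protein that dampens NF-kB signalling, had 814, 819 and 888 CPM in PAC-CM-KD libraries and 811, 782 and 834 CPM in PAC-CM libraries, which overlap. Xaf1 and Ifi44 also had overlapping groups, with estimates of 0.02 and -0.04.

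Ifi27l2a was the most uneven member. It had 69.0, 26.7 and 34.8 CPM in PAC-CM-KD libraries, against 40.2, 61.6 and 32.8 CPM in PAC-CM libraries. One library of each group stood above the others, and the SD was 51.6% of the mean in PAC-CM-KD and 33.3% in PAC-CM, while the median over members was 5.01% in PAC-CM-KD and 4.55% in PAC-CM. The estimate was -0.04 with a lower bound at 0.428-fold and an upper bound above that of any other member, so no difference could be resolved for it. Ifi44l, which did not pass the count filter, had counts of 0, 0 and 0 in PAC-CM-KD and 2, 2 and 0 in PAC-CM, all at or under the floor of 3, so no fold is given. Its neighbour Ifi44 averaged 501 ± 48.5 CPM in PAC-CM-KD and 516 ± 65.4 CPM in PAC-CM.

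Among the 34 members that did not pass, 32 had a 95% interval that stayed within 1.5-fold in both directions, with outermost bounds of 0.708 and 1.32. The 2 others were Oas2, whose upper bound was 1.57-fold, and Ifi27l2a. Over all 36 tested members, 23 had overlapping groups. PAC-CM-KD replicate 1 was the lowest of the 6 libraries for 12 members, and PAC-CM replicate 3 was the highest for 14. Without PAC-CM-KD replicate 1, a choice made after seeing the data, 9 members lay wholly below PAC-CM, against 18.7% of all tested genes, and 9 wholly above, against 17.3%. With CPM by library total in place of TMM scaling, 10 members lay wholly below, against 15.7% of all tested genes, and 3 wholly above, against 6.86%. Mx2 and Isg15 then also lay wholly below, and the groups of Rtp4 and Ifitm3 overlapped. The heat map shows PAC-CM-KD replicate 1 as the lowest library for Ifit1, Ifit2, Ifit3, Ifit3b, Mx1 and Mx2 and as the highest for Oas2, Bst2 and Ifitm3.

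**Figure D4:**
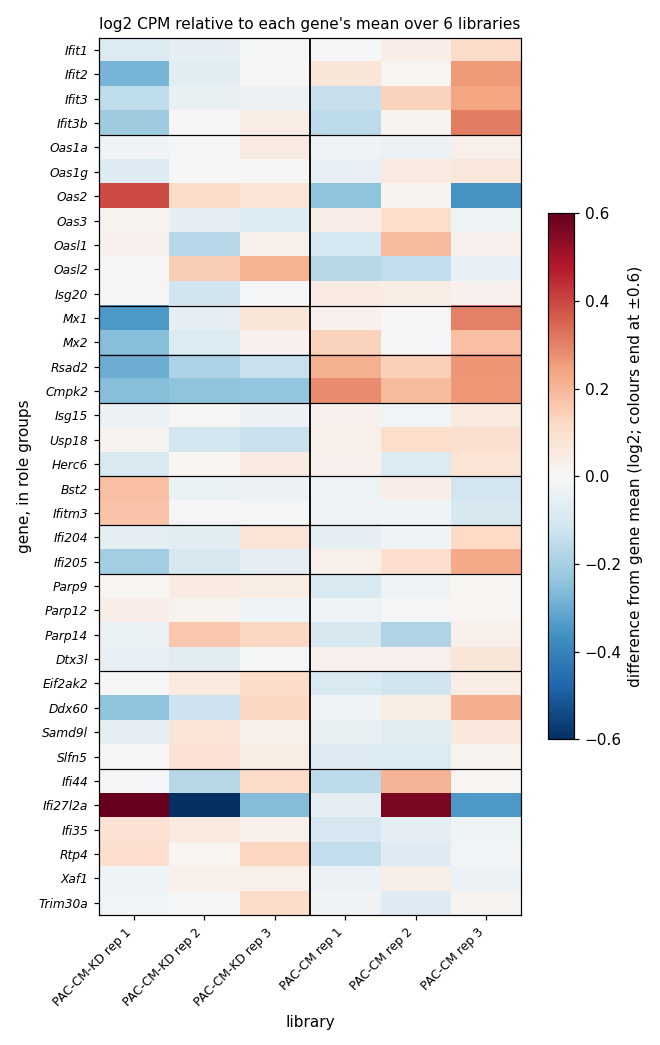
Log2 CPM of each tested member in each library relative to that gene's mean over the 6 libraries (colour, ending at ±0.6), with PAC-CM-KD libraries left of the vertical line and genes in role groups. Cmpk2 and Rsad2 are below their mean in all 3 PAC-CM-KD libraries and above it in all 3 PAC-CM libraries, and Ifi27l2a has values of both signs within each group.

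The members together took 2.71, 2.80 and 2.85% of all counts in PAC-CM-KD libraries, against 3.05, 3.07 and 3.27% in PAC-CM libraries. Without Rsad2 and Cmpk2 the shares were 2.29, 2.36 and 2.40% in PAC-CM-KD and 2.43, 2.49 and 2.64% in PAC-CM, without overlap. These shares are of the deposited total. Divided by the TMM factors, the shares without Rsad2 and Cmpk2 were 2.33, 2.38 and 2.45% in PAC-CM-KD and 2.38, 2.46 and 2.60% in PAC-CM, which overlap.

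Levels of different genes were compared as CPM per kilobase of annotated exon. Ifitm3 was highest with 1992 ± 146 in PAC-CM-KD and 1852 ± 48.8 in PAC-CM, followed by Bst2 with 1451 ± 128 in PAC-CM-KD and 1380 ± 74.1 in PAC-CM. Ifit3 (1041 ± 47.2 in PAC-CM-KD, 1166 ± 151 in PAC-CM) and Isg15 (1059 ± 17.6 in PAC-CM-KD, 1094 ± 29.4 in PAC-CM) came next and did not differ from each other beyond their spread in either group. In PAC-CM-KD, Ifit2 was at 800 ± 79.5 and Rsad2 at 698 ± 40.5, whereas in PAC-CM they were level at 937 ± 84.2 for Ifit2 and 931 ± 39.2 for Rsad2. By this measure Rsad2 ranked 69 in PAC-CM-KD and 47 in PAC-CM among 13891 genes with an exon length. Cmpk2, at 340 ± 1.94 in PAC-CM-KD and 477 ± 15.4 in PAC-CM, ranked 146 in PAC-CM-KD and 100 in PAC-CM. In PAC-CM-KD it was level with Oas1a (339 ± 9.72) and Ifi204 (349 ± 19.1), and in PAC-CM it stood above Oas1a (335 ± 8.17) and Ifi204 (355 ± 23.2). The lowest tested member was Ddx60 with 32.2 ± 4.26 in PAC-CM-KD, and in PAC-CM Ddx60 (36.0 ± 3.14), Parp9 (36.0 ± 1.28) and Xaf1 (36.4 ± 1.02) were level. Among the 500 highest of these 13891 genes were 22 of the 36 tested members in PAC-CM-KD and 23 in PAC-CM. Most tested members were therefore abundant with and without kinsenoside, but not all, as Ddx60 ranked 1373 in PAC-CM-KD and 1208 in PAC-CM.

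**Figure D5:**
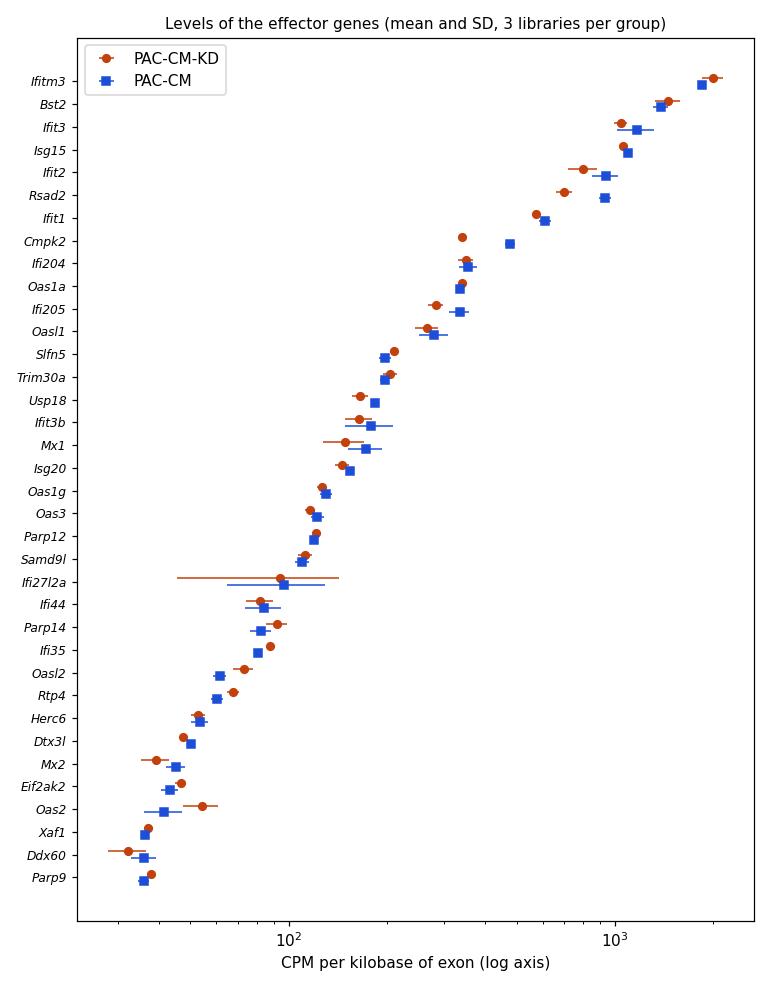
Mean CPM per kilobase of exon with SD (n = 3 per group) for the 36 tested members, ordered by the PAC-CM mean, on a log axis; circles are PAC-CM-KD and squares PAC-CM. Ifitm3 is at the top in both groups, and the group means are clearly separated for Rsad2 (698 in PAC-CM-KD, 931 in PAC-CM) and Cmpk2 (340 in PAC-CM-KD, 477 in PAC-CM).

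The genes around the effectors were taken from lists that do not hold them. Of 23 tested genes of the type I interferon pathway, 1 was called lower and none higher, with a median log2 fold change of -0.05. The called gene was Irf1, a transcription factor that binds ISRE-type elements, with 84.7, 83.0 and 89.4 CPM in PAC-CM-KD libraries, against 149.9, 143 and 159 CPM in PAC-CM libraries. Its log2 fold change was -0.81 (SE 0.0672, edgeR adjusted p = 0.00248), a greater fall than that of any member. At an unadjusted p under 0.05, 6 of these 23 genes had lower estimates and 0 higher, while 14.9% of all tested genes passed in either direction. Ifnb1, the gene of interferon beta, had 0.351, 0.431 and 0.348 CPM in PAC-CM-KD libraries, against 0.958, 0.458 and 1.07 CPM in PAC-CM libraries. The groups did not overlap (log2 fold change -1.13, SE 0.393, edgeR adjusted p = 0.236), but the nearest libraries, at 0.431 and 0.458 CPM, were almost level. With a count of 3 at up to 0.0729 CPM, these Ifnb1 values rest on few reads. Stat2 and Irf9, which act below the receptor, did not pass, with estimates of 0.03 for Stat2 (adjusted p = 0.848) and -0.14 for Irf9 (0.467). Irf7, which amplifies interferon production, had an estimate of 0.02. Ifnb1, Stat2, Irf9 and Irf7 are named here as genes of the pathway with their values known.

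Among 36 other antiviral interferon-stimulated genes, 1 was called lower and none higher, with a median of -0.07. It was Apobec3, a DNA-editing enzyme that restricts retroviruses in mice, with 31.6, 36.1 and 32.8 CPM in PAC-CM-KD libraries, against 51.6, 52.5 and 50.5 CPM in PAC-CM libraries. Its log2 fold change was -0.62 (SE 0.0717, edgeR adjusted p = 0.0152). Of 35 tested paralogs of the members none was called by edgeR or limma-voom. At an unadjusted p under 0.05, 4 of these 35 had lower and 2 higher estimates, while 14.9% of all tested genes passed in either direction. DESeq2, which called 490 of all tested genes where edgeR called 71, called 3 paralogs lower and 1 higher. The paralogs of smallest p were Ifi208, a p200 gene (log2 fold change -0.34, edgeR adjusted p = 0.0909), and Ifi27 (0.41, adjusted p = 0.101). Of 18 guanylate-binding proteins and immunity-related GTPases, which attack the vacuoles of intracellular pathogens, none was called by edgeR or limma-voom. An unadjusted p under 0.05 was reached by 3 of these 18, with lower estimates, against 14.9% of all tested genes in either direction. DESeq2 called Gbp5 lower. The lowest p values there belonged to Gbp5 (log2 fold change -0.38, edgeR adjusted p = 0.0762) and Gbp3 (-0.24, adjusted p = 0.143).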

How the data were processed

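Enriched mRNA of 6 macrophage samples, 3 per group, was sequenced, per the labels' protocols. The deposited table holds the authors' counts per Ensembl gene as whole numbers. The submitters' processing notes name STAR, StringTie 1.3.1c, DESeq2 1.16.1 and GRCm38, with no role. The counting tool and its strand setting are not stated there or in the labels. Counts were tested with edgeR 4.0.16 (R 4.3.3; filterByExpr, TMM, robust quasi-likelihood, group only, two-sided) and adjusted by Benjamini-Hochberg over 13901 genes. The script was tested on simulated data. Standard errors are the log2 fold change over the square root of F. Intervals are 95% confidence intervals of the log2 fold change built from these standard errors, and reflect variation between libraries only. Alternatives were DESeq2 1.42.0, limma-voom (limma 3.58.1), other scalings and filters, non-robust estimates, the replicate number as a block, each library left out, and near-identical copies summed. Coordinates, exon lengths and shared 150-base stretches come from GENCODE M21 (GRCm38), and promoters from RefSeq (GRCm38.p6). Members, lists, roles and tests were chosen with earlier results of these data known. Named in full were called members, members without overlap, and in each role group those of smallest p and most counts; from other lists, called genes or the 2 of smallest p. Some genes of the pathway and marker lists are not reported here.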

Additional observations from a re-analysis of the deposited data

How the results depend on the processing

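The count of members called lower, 2 in the reported fit, stayed 2 with upper quartile scaling, library totals, no filter on low counts, DESeq2 and near-identical copies summed. It was 1, Cmpk2, with RLE scaling, with a filter of more than 1 CPM in 3 libraries, with non-robust estimates and with limma-voom, and 0 to 1 when 1 library was left out. With the replicate number as a block it was also 1. The labels do not say that the numbers pair the samples. Same-numbered libraries correlated by 0.0087, -0.10 and 0.13 in their deviations from the group means. Differently numbered libraries correlated by -0.17 to 0.16, so with 3 libraries per group these values cannot decide whether samples were paired. No member was called higher under any of these fits. The causes of these changes were not tested, except that leaving out a library also removes a sample.

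The median log2 fold change of the members, -0.04, was -0.087 with library totals, a setting chosen after seeing the data in which the median of all genes was -0.05, and ranged from -0.067 to -0.0035 when 1 library was left out. Members wholly above PAC-CM numbered 3 with CPM by library total, where 6.86% of all tested genes did so, and 9 without PAC-CM-KD replicate 1, where 17.3% did, both chosen after seeing the data. The estimate for Oas1a, 0.02, changed sign with upper quartile scaling (-0.000197), library totals (-0.026) and copies summed (-0.0034), and ranged from -0.0053 to 0.042 when 1 library was left out. Each tested member had at least 1116 counts in each library. How far counting error or the spread between libraries limits these values was not tested.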

Other observations

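DESeq2 called further genes of the type I interferon pathway list lower that edgeR did not, as over all tested genes, where it called 490 and edgeR 71. These were Tyk2, a receptor kinase, and the feedback inhibitors Socs1 and Socs3, named after their values were seen. Socs3 had 589, 434 and 415 CPM in PAC-CM-KD libraries, against 755, 769 and 600.1 CPM in PAC-CM libraries, and Socs1 had 52.7, 43.2 and 46.9 CPM in PAC-CM-KD libraries, against 59.2, 71.8 and 59.2 CPM in PAC-CM libraries. Tyk2 had 81.9, 77.8 and 73.2 CPM in PAC-CM-KD libraries, against 90.2, 96.4 and 95.7 CPM in PAC-CM libraries. All 3 lay wholly below PAC-CM, as did 7 of the 23 tested genes of the list and 11.4% of all tested genes. They were picked by a test on the same counts, so this separation adds no support. The edgeR adjusted p was 0.185 for Socs3, 0.129 for Socs1 and 0.128 for Tyk2. The paralogs DESeq2 called were Ifi27, Parp8, Ifi206 and Ifi208. Of these the p200 gene Ifi206 was lower, with 963, 988 and 997 CPM in PAC-CM-KD libraries, against 1121, 1169 and 1132 CPM in PAC-CM libraries (log2 fold change -0.22, edgeR adjusted p = 0.133).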
